A study of Mus musculus with 6 samples.

Results

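The transcripts described here encode 10 factors that set or oppose the eosinophil fate in bone marrow. They are Gata1, Zfpm1, Cebpa, Cebpb, Cebpd, Cebpe, Spi1, Id1, Id2 and Trib1. They were chosen by name, and all 10 were found among the 16254 genes of the deposited count table. Bulk RNA sequencing compared eosinophils differentiated from the bone marrow of C57BL/6 mice after 24 h with extracellular vesicles (EVs) of activated TH2 cells, at 5e9 EVs/mL, with eosinophils given sham control. The sham control was culture medium that had seen no cells and went through the same EV isolation. Both groups had 3 biological replicates and had been grown in stem cell factor and FLT3 ligand and then in IL-5. The labels do not say whether the 3 replicates of a group came from separate mice, so p-values measure the spread between these cultures. The cultures were not sorted before sequencing as far as the sources used here say, and they can hold other cells of the marrow.

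GATA1 is the zinc finger factor on which the formation of eosinophils depends, and FOG-1, the product of Zfpm1, binds GATA factors and opposes the eosinophil fate in progenitors. C/EBPα opens the granulocyte and monocyte lineages, C/EBPβ serves myeloid cells under cytokine stimulation, and C/EBPε drives late granulocyte maturation and granule genes. PU.1, encoded by Spi1, is shared by all myeloid lineages, and its dose relative to GATA1 bears on which lineage forms. ID1 and ID2 lack a DNA-binding domain and hold E proteins away from DNA. TRIB1 is a pseudokinase that brings C/EBPα to the ubiquitin ligase COP1 for degradation.

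Estimated counts summed to 23697620 to 32808674 per sham-treated library and to 32260914 to 37874426 per EV-treated library. Mitochondrial transcripts made up 0.694% to 0.897% of the counts. A normalized count is a rounded count over the TMM-scaled library size of its sample, set against the average (geometric) of the 6 such sizes. edgeR's quasi-likelihood test was run on EV against sham over 13498 genes, with Benjamini-Hochberg adjustment over all of them. A gene is called higher or lower at an adjusted p under 0.01, and every adjusted p below is from this test unless another is named. Log2 differences are of EV over sham and come from the same fit. The defining markers of eosinophils were abundant. Prg2, which encodes major basic protein, was at 558759 to 717371 normalized counts in the sham-treated and 712821 to 777590.0 in the EV-treated samples. Epx, which encodes eosinophil peroxidase, was at 129430.0 or more in each sample. Siglecf, Ccr3 and Il5ra were also found in all 6 samples. Markers of macrophages and monocytes, which are given below, were found too, with Lyz2 at 38591 to 70195.5 normalized counts in the sham-treated samples.

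Promoter sequences of 5 of the 10 members were found in a RefSeq table of the GRCm38.p6 build, which is the mm10 build of the deposited data. Those of Gata1, Cebpa and Cebpb are shown, as the 250 bases before the annotated start, as the GATA and C/EBP factors among the 5. Capitals mark the motifs found, which are GAGGAA of PU.1 in Gata1, TTGCGCCA of C/EBP factors in Cebpa and TGACG, a short form of the cyclic AMP response element, in Cebpb.
Gata1 (chrX:7967911-7968160, minus strand): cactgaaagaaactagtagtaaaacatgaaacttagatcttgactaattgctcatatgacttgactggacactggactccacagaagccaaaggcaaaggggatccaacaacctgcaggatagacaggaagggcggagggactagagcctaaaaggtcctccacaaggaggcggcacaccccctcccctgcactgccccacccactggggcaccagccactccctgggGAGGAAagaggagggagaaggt
Cebpa (chr7:35119043-35119292, plus strand): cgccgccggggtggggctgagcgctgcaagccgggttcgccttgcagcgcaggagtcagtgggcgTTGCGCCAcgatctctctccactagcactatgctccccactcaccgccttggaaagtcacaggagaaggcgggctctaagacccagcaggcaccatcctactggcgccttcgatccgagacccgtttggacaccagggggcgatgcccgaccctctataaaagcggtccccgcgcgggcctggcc
Cebpb (chr2:167688665-167688914, plus strand): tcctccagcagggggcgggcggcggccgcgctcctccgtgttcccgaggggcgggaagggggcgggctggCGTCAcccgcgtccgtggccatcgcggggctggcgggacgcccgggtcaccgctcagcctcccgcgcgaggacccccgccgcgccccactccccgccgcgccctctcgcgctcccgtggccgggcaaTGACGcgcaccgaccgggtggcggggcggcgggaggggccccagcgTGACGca
The start of Gata1 in RefSeq lies inside the span that GENCODE vM21 gives for the gene. Both strands were searched from 250 bases before to 50 bases after the start. GAGGAA was in 28.3% of all 32851 promoters of this length and, of the 5 members, in that of Gata1, with its first base at -22. TTGCGCCA was in 0.301% of all promoters and in that of Cebpa at -185, and TGACG was in 20.8% of all promoters and in that of Cebpb at -180, -53 and -7. The first of these 3 lies on the opposite strand. TTGCGCCA and TGACG were added to the search after the sequences had been read. The E box CAGCTG was in 16.3% of all promoters and in that of Id2. AGATAA or TGATAA of GATA factors, TTGCNNAA of C/EBP factors and TTCNNNGAA of STAT factors were in none of the 5 windows, against 18.6%, 10.8% and 8.3% of all promoters in that order. A match describes the letters only, and no binding was measured.

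Of the 10 factors, 5 were higher and 2 were lower in EV- versus sham-treated eosinophils. Gata1, Zfpm1, Cebpb, Id1 and Trib1 rose and Cebpa and Cebpd fell, while Cebpe, Spi1 and Id2 did not pass the test. Of all genes tested, 12.1% were called higher and 11.6% lower, or 23.7% in either direction, and among the 10454 genes with a mean normalized count over 100, as all 10 factors had, 28.1% were called. The EV-treated samples all lay above the sham-treated samples for 7 factors, as for 24.8% of all genes tested, and all below for 2, as for 24.7%, which makes 9 of 10 against 49.6% that did not overlap. With a log2 fold change of 1 or more in size asked as well, 0 of the 10 were higher and 1, Cebpa, was lower, where 3.1% of all genes were higher and 6.35% lower, or 9.45% in either direction. The median log2 fold change of the 10 was 0.36, beside -0.014 over all genes tested. The members were chosen with earlier results of these data known, so these counts are a description of the list.

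**Figure D1:**
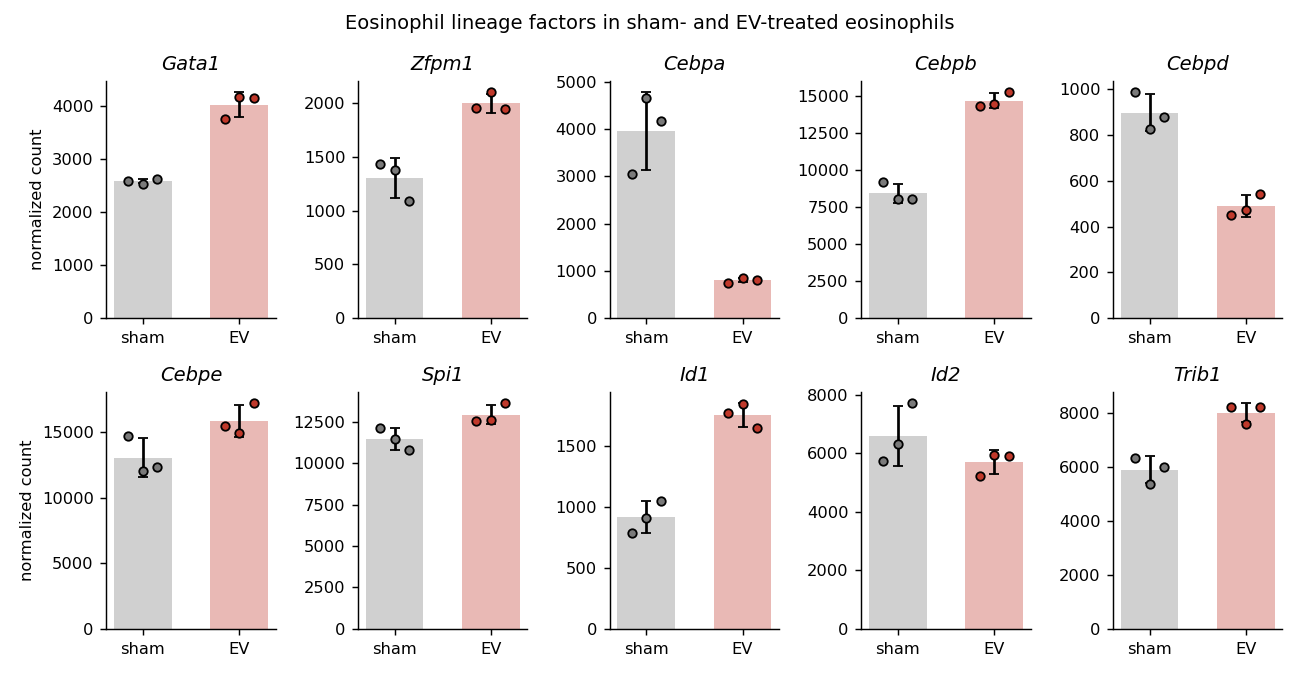
Normalized counts of the 10 lineage factors (y axis, each panel with its own scale from 0) in 3 sham-treated (grey) and 3 EV-treated (red) samples, with points for samples, bars for means and error bars for the SD. The 3 EV-treated samples lie above the sham-treated samples for Gata1, Zfpm1, Cebpb, Cebpe, Spi1, Id1 and Trib1, below them for Cebpa and Cebpd, and among them for Id2.

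Gata1 and its cofactor Zfpm1 rose by nearly the same fold. Gata1 (ENSMUSG00000031162.14, chrX:7959260-7978071) had 2581, 2534 and 2619.7 normalized counts in sham replicates 1 to 3 and 3756, 4156 and 4151 in EV replicates 1 to 3. The sham-treated samples lay close together, and each EV-treated sample was well above them. Gata1 rose from 2579 ± 42.7 (SD, n = 3) to 4021 ± 229 (SD, n = 3), 1.56-fold, a log2 difference of 0.64 ± 0.0651 (SE, adjusted p = 3.85e-05). Zfpm1 (ENSMUSG00000049577.15, chr8:122282141-122337251) had 1429.9, 1380.0 and 1089 normalized counts in sham replicates 1 to 3 and 1950.1, 2098 and 1944 in EV replicates 1 to 3. It was lowest in sham replicate 3, and the groups did not overlap. Zfpm1 rose 1.54-fold, a log2 difference of 0.62 ± 0.102 (SE, adjusted p = 0.000989).

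The ratio between them did not move beyond the spread of the samples. The log2 ratio of Gata1 to Zfpm1 counts within a sample ranged from 0.85 to 1.27 in the sham-treated and 0.95 to 1.09 in the EV-treated samples, and the EV-treated mean exceeded the sham-treated mean by 0.01 (exact two-sided permutation test, p = 1). This difference was smaller than the SD among sham-treated samples, 0.233, and changed sign when sham replicate 1 (-0.063), sham replicate 2 (-0.051) or EV replicate 3 (-0.033) was left out. Such a ratio does not depend on the scaling between samples. With 3 samples a group, the exact test cannot give a p under 0.1.

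Within the GATA family, Gata2, which serves progenitors, mast cells, basophils and early eosinophils, had a larger fold than Gata1, a difference that was not tested. It had 2611, 2244 and 2536 normalized counts in sham replicates 1 to 3 and 5485, 4948 and 5129 in EV replicates 1 to 3. All EV-treated samples were above all sham-treated samples, a log2 difference of 1.07 ± 0.0757 (SE, adjusted p = 3.58e-06). Gata3, the GATA factor of T cells, had a mean of 27.1 ± 30.2 (SD, n = 3) normalized counts in sham- and 8.47 ± 7.996 (SD, n = 3) in EV-treated samples, with overlapping groups (adjusted p = 0.235). Tal1 and Lmo2 encode partners of GATA1 in other lineages. Tal1 was called higher (log2 fold change 0.94, adjusted p = 0.00794) and Lmo2 was not (log2 fold change 0.30, adjusted p = 0.025). Both were named here after their values were seen, and leaving out any sample other than sham replicate 3 lost the call of Tal1, with an adjusted p of 0.0153 to 0.0429.

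GATA1 and GATA2 also serve mast cells, basophils, red cells and platelets, so the markers of those cells are given beside them. Of 11 mast cell and basophil markers, 8 were in the table and 7 passed the filter on low counts. Of these 7, 4 were called higher and 1 lower, where 12.1% of all genes tested were higher and 11.6% lower. The summed normalized count of the 8 in the table was 3876, 3083 and 3686 in sham replicates 1 to 3 and 8220.1, 6669 and 6536 in EV replicates 1 to 3. This sum was higher with EVs, as were Gata1 and Gata2. Among the EV-treated samples the sum and Gata2 were highest in replicate 1, where Gata1 was lowest. Among the sham-treated samples the sum, Gata1 and Gata2 were each lowest in replicate 2. Cpa3 and Prss34, a mast cell carboxypeptidase and a basophil protease, rose (log2 fold change 1.30, adjusted p = 3.33e-05, and log2 fold change 1.58, adjusted p = 6.7e-05), while Hpgds fell (log2 fold change -4.24, adjusted p = 2e-06). Mcpt4, Tpsab1 and Cma1, which define connective tissue mast cells, had no row, and Tpsb2 had at most 3.00 normalized counts in a sample. Of 14 erythroid and megakaryocyte markers, 10 were in the table and 7 were tested, with 2 called higher and 2 lower. The sum of the 10 was 18360.3, 16104 and 17903 in sham replicates 1 to 3 and 18981, 17217 and 20422 in EV replicates 1 to 3 normalized counts, and the groups overlapped. The highest of them were Itga2b, the platelet integrin αIIb (log2 fold change 0.50, adjusted p = 0.00172), whose call was lost without sham replicate 3 (adjusted p = 0.0107) or EV replicate 3 (adjusted p = 0.0108), and Ppbp, a platelet chemokine (log2 fold change -0.97, adjusted p = 3.33e-05). Their means over the 6 samples, 13502 and 3932 normalized counts, make up most of the sum, and they moved in opposite directions. Pf4, named after its values were seen, was also lower (log2 fold change -2.23, adjusted p = 0.000491). Hbb-bt, a globin gene, was higher in EV-treated samples (log2 fold change 4.26, adjusted p = 0.00735) at a mean of 120.0 ± 23.3 (SD, n = 3) normalized counts, at 0 in 2 sham-treated libraries, and lost the call with DESeq2 (adjusted p = 0.0958) and without sham replicate 2 or any EV-treated sample (adjusted p of 0.0132 to 0.0392). Its fold rests on the 19.4 normalized counts of sham replicate 3, without which the fitted log2 fold change of Hbb-bt was 9.98, a value that depends on the prior count. The part of these cells in the change of Gata1 was not tested. In bulk samples, fewer cells of a type and less RNA per cell cannot be told apart.

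The 4 C/EBP members moved in different directions, with Cebpb higher, Cebpa and Cebpd lower and Cebpe not called. Cebpa (ENSMUSG00000034957.10, chr7:35119293-35121928) had 3047, 4651 and 4159 normalized counts in sham replicates 1 to 3 and 752, 851 and 815 in EV replicates 1 to 3. Every EV-treated sample was far under the lowest sham-treated sample, sham replicate 1. Cebpa fell from 3952 ± 822 (SD, n = 3) to 806 ± 49.99 (SD, n = 3), 4.90-fold lower, a log2 difference of -2.29 ± 0.141 (SE, adjusted p = 1.49e-06). This was the largest change of the 10 factors in any direction. Leaving out each sample in turn kept its log2 fold change between -2.44, without sham replicate 1, and -2.16.

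Cebpb (ENSMUSG00000056501.3, chr2:167688915-167690418) had 9187, 8046 and 8084 normalized counts in sham replicates 1 to 3 and 14336, 14455 and 15264 in EV replicates 1 to 3. The groups were far apart relative to their spread, and Cebpb rose 1.74-fold, a log2 difference of 0.80 ± 0.0660 (SE, adjusted p = 9.77e-06). Cebpd (ENSMUSG00000071637.5, chr16:15887286-15891031), an acute-phase member of the family, had 987, 827 and 877 normalized counts in sham replicates 1 to 3 and 451, 472 and 542 in EV replicates 1 to 3. It fell 1.84-fold, a log2 difference of -0.88 ± 0.115 (SE, adjusted p = 0.00022), with no overlap between groups. Strandedness of the counting is not given in the sources used here. In GENCODE vM21, 20.7% of the exonic bases of Cebpb overlap Tmem189, now named Peds1, on the opposite strand and 15% of those of Cebpd overlap Spidr, so reads there could be assigned to either gene. Peds1 moved the other way from Cebpb (log2 fold change -0.44, adjusted p = 0.000413), and Spidr was not called (log2 fold change -0.10, adjusted p = 0.397).

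Cebpe (ENSMUSG00000052435.7, chr14:54710360-54712174) had 14726, 11994 and 12364 normalized counts in sham replicates 1 to 3 and 15449, 14901 and 17206 in EV replicates 1 to 3. Its groups lay apart only narrowly, with a log2 difference of 0.28 ± 0.0862 (SE, adjusted p = 0.0278), which misses the threshold. It passed with DESeq2 (adjusted p = 0.00356), with a block for the replicate number (adjusted p = 0.00608) and without sham replicate 1 (adjusted p = 0.00163). Of the other C/EBP genes, Ddit3, which encodes the stress factor CHOP, was lower (log2 fold change -0.52, adjusted p = 0.00327), and it lost the call when any EV-treated sample was left out (adjusted p of 0.0174 to 0.0239). Cebpg and Cebpz were not called (log2 fold change -0.12, adjusted p = 0.273, and log2 fold change -0.044, adjusted p = 0.707).

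On a scale of normalized counts per kilobase of the longest coding transcript, the make-up of the C/EBP family changed. Cebpa made up 5.98%, 10.4% and 9.23% of the summed level of the 4 members in sham replicates 1 to 3 and 1.28%, 1.47% and 1.27% in EV replicates 1 to 3. Cebpb made up 31.3% to 31.5% in sham- and 41.5% to 43.5% in EV-treated samples. Cebpe was the largest part in every sample, at 56.8% to 61.2% and 54.4% to 56.7%. Cebpd made up 1.30% to 1.36% and 0.537% to 0.592%. The shares of Cebpb lay higher and those of Cebpa, Cebpd and Cebpe lower in every EV-treated than in every sham-treated sample, and shares add to the whole, so they do not move independently. Within samples, the ratio of Cebpb to Cebpa rose 8.43-fold and that of Cebpe to Cebpa 5.90-fold, with no overlap (exact two-sided permutation test, p = 0.1 for each, the smallest possible, and 0.14 adjusted over 7 ratios).

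**Figure D2:**
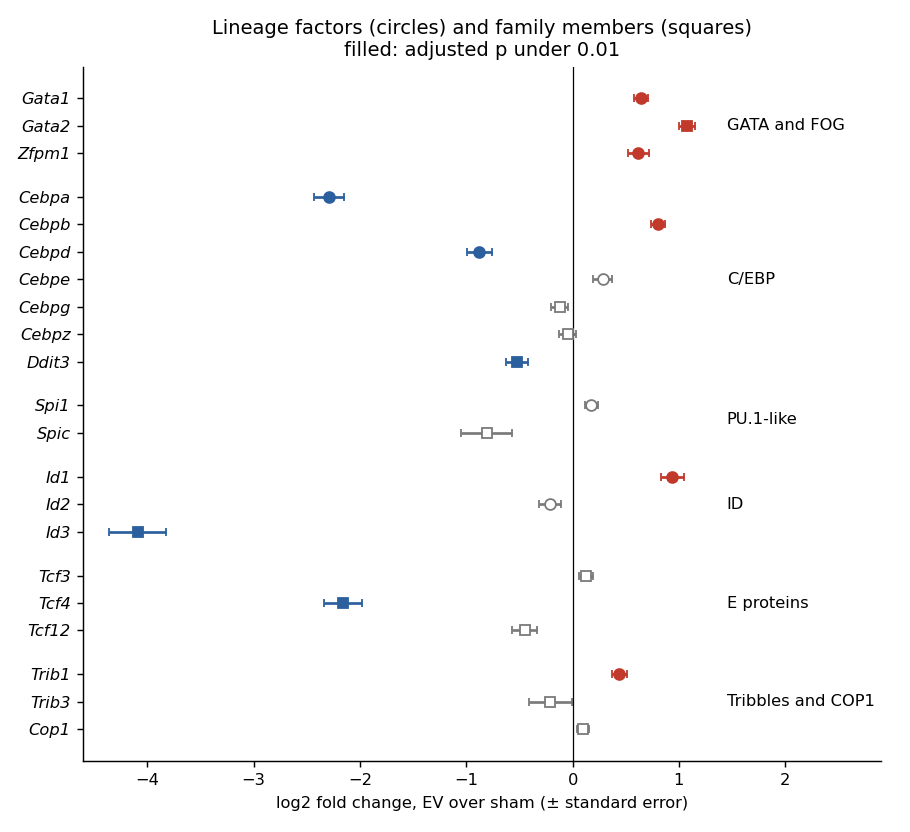
Log2 fold changes of EV over sham (x axis) with standard errors for the 10 lineage factors (circles) and for genes of the same families (squares). Filled points have an adjusted p under 0.01, red for higher and blue for lower, and open grey points do not. Gata3 and Trib2, which were not called, and genes with no test are left out. Cebpa, Id3 and Tcf4 lie furthest to the left, and Gata2 and Id1 furthest to the right.

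Spi1 did not pass the test. Spi1 (ENSMUSG00000002111.8, chr2:91082390-91115756) had 12099, 11472 and 10763 normalized counts in sham replicates 1 to 3 and 12556, 12609 and 13620.5 in EV replicates 1 to 3. All EV-treated samples were above all sham-treated samples but by little, with a log2 difference of 0.18 ± 0.0625 (SE, adjusted p = 0.0519). The log2 ratio of Gata1 to Spi1 counts ranged from -2.23 to -2.04 in the sham-treated and -1.74 to -1.60 in the EV-treated samples, a rise of 1.38-fold in the ratio with no overlap (exact two-sided permutation test, p = 0.1, the smallest possible, and 0.14 adjusted over 7 ratios). Of the PU.1-like factors, Spic, which marks iron-recycling macrophages, was not called (log2 fold change -0.81, adjusted p = 0.0254). Spib, with at most 14.4 normalized counts in a sample, was too low to test.

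Among the inhibitors of E proteins, Id1 rose and Id2 did not pass the test. Id1 (ENSMUSG00000042745.9, chr2:152736251-152737410) had 784, 912 and 1049 normalized counts in sham replicates 1 to 3 and 1765, 1843 and 1648 in EV replicates 1 to 3. The groups were well apart, and Id1 rose from 915 ± 132 (SD, n = 3) to 1752 ± 98.3 (SD, n = 3), 1.92-fold, a log2 difference of 0.94 ± 0.108 (SE, adjusted p = 8.7e-05). Id2 (ENSMUSG00000020644.9, chr12:25093799-25097140) had 5722, 6304 and 7709.5 normalized counts in sham replicates 1 to 3 and 5214, 5936 and 5905 in EV replicates 1 to 3. It varied most among sham-treated samples and the groups overlapped, with a log2 difference of -0.21 ± 0.104 (SE, adjusted p = 0.149). The log2 ratio of Id1 to Id2 ranged from -2.88 to -2.79 in the sham-treated and -1.84 to -1.56 in the EV-treated samples, so that the ratio rose 2.22-fold (exact two-sided permutation test, p = 0.1, and 0.14 adjusted over 7 ratios).

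Id3, which binds E proteins like Id1 and Id2, fell with a larger fold than any of the 10 factors. It had 646, 670.4 and 1157 normalized counts in sham replicates 1 to 3 and 57.9, 47.1 and 40.0 in EV replicates 1 to 3. The highest EV-treated sample was far under the lowest sham-treated sample, a log2 difference of -4.09 ± 0.270 (SE, adjusted p = 2.42e-06). Id4 was too low to test, with 0 counts in 3 of the 6 samples. Of the E proteins that ID factors bind, Tcf4, which encodes E2-2, was called. It fell from 616 ± 116 (SD, n = 3) to 138 ± 15.7 (SD, n = 3) (log2 fold change -2.16, adjusted p = 1.08e-05). Tcf12 missed the threshold (log2 fold change -0.45, adjusted p = 0.0137). It passed with DESeq2 (adjusted p = 0.00267), with a block for the replicate number (adjusted p = 0.00344) and without sham replicate 1 (adjusted p = 0.000717). It also passed with upper-quartile scaling (adjusted p = 0.00725) and library totals alone (adjusted p = 0.00322). Leaving out any other sample gave Tcf12 an adjusted p of 0.0367 to 0.0682. Tcf3 was not called (log2 fold change 0.13, adjusted p = 0.153), and its sign turned with library totals alone (-0.020). The log2 ratio of Id2 to the sum of Tcf3, Tcf4 and Tcf12 ranged from 0.44 to 0.85 in the sham-treated and 0.61 to 0.81 in the EV-treated samples, with overlapping groups (exact two-sided permutation test, p = 0.6).

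Trib1 rose while Cebpa, whose protein it brings to degradation, fell at the RNA level. Trib1 (ENSMUSG00000032501.9, chr15:59648350-59657099) had 6327, 5361 and 6005 normalized counts in sham replicates 1 to 3 and 8209, 7586 and 8209 in EV replicates 1 to 3. The groups did not overlap, and Trib1 rose 1.36-fold, a log2 difference of 0.44 ± 0.0723 (SE, adjusted p = 0.000967). The log2 ratio of Cebpa to Trib1 ranged from -1.05 to -0.20 in the sham-treated and -3.45 to -3.16 in the EV-treated samples, so that Cebpa fell 6.57-fold relative to Trib1 (exact two-sided permutation test, p = 0.1, and 0.14 adjusted over 7 ratios). Neither protein was measured. Cop1, the ligase, was not called (log2 fold change 0.10, adjusted p = 0.217) and turned to -0.048 with library totals alone. Trib2 and Trib3 were not called (log2 fold change -0.80, adjusted p = 0.496, and log2 fold change -0.21, adjusted p = 0.459).

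**Figure D3:**
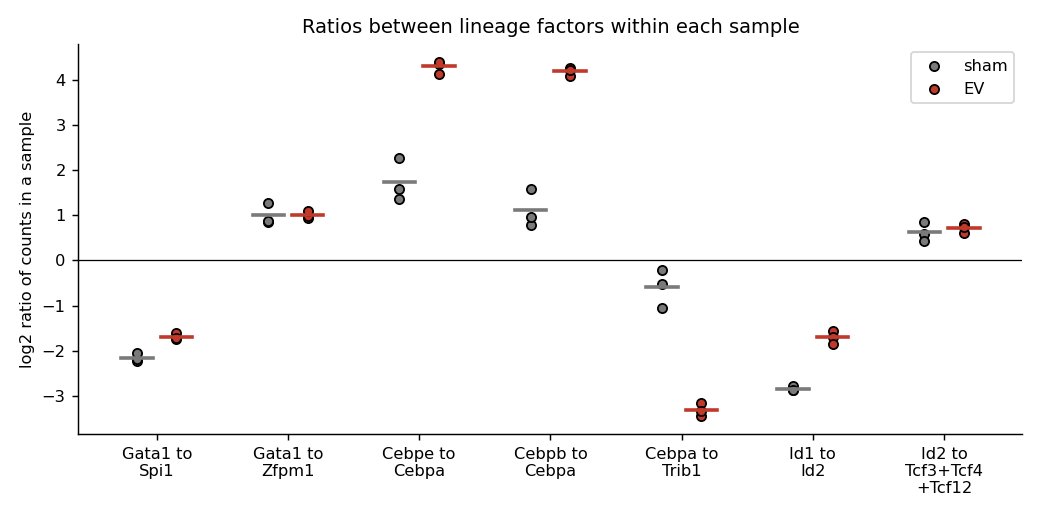
Log2 ratios of the counts of 2 genes, or of Id2 to 3 summed E protein genes, within each sample (y axis) for sham-treated (grey) and EV-treated (red) samples, with lines for means. The 3 ratios that hold Cebpa have the largest differences between groups, and those of Gata1 to Zfpm1 and of Id2 to the E proteins overlap.

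The order of the levels per kilobase changed with EVs mainly through Cebpa. In sham-treated eosinophils Cebpe was highest, at 9665 to 11867 normalized counts per kilobase, followed by Spi1 (5292 to 5948) and Cebpb (5349.5 to 6108), whose ranges overlapped. Id2 came next (2906 to 3915), and then Cebpa (1160.4 to 1771), Trib1 (1238 to 1461) and Gata1 (1333 to 1377), which did not differ beyond their spread. Id1 (676 to 904), Zfpm1 (321 to 422) and Cebpd (221 to 263) were lowest. In EV-treated eosinophils no neighbours in the order overlapped. Cebpe (12007 to 13865) was followed by Cebpb (9532 to 10149), Spi1 (6173 to 6696) and Id2 (2648 to 3015). Gata1 (1975 to 2185) then stood above Trib1 (1752 to 1896), Id1 (1420.4 to 1589) and Zfpm1 (574 to 619), and Cebpa (286 to 324) had dropped from the fifth to the ninth place, above Cebpd (120.3 to 145). The length of the transcripts present in these cells is not known, so levels between genes are approximate.

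**Figure D4:**
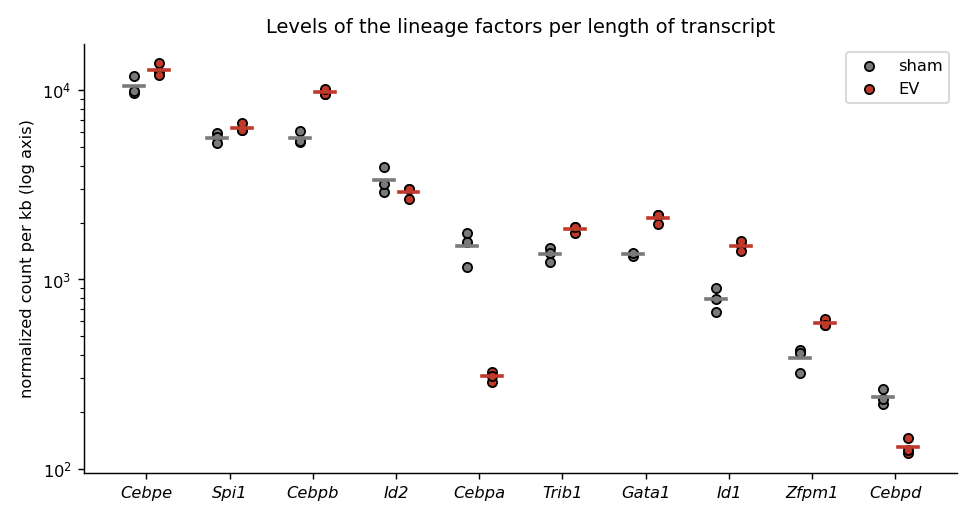
Normalized counts per kilobase of the longest coding transcript (y axis, log scale) for the 10 factors, ordered by the sham mean, with points for samples and lines for means of sham-treated (grey) and EV-treated (red) eosinophils. Cebpe is highest in both groups, and Cebpa falls furthest.

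Cebpa also serves monocytes and macrophages, and most of the listed markers of those cells fell with it, though not all. Of 15 macrophage and monocyte markers, all were tested, 11 were lower and 1 was higher, where 11.6% of all genes tested were lower and 12.1% higher. Their summed normalized count was 87159, 144086 and 139210.0 in sham replicates 1 to 3 and 41685, 46339 and 50736 in EV replicates 1 to 3, 2.67-fold lower with EVs, and no sample of one group reached the other. Lyz2, a lysozyme of macrophages and other myeloid cells, fell from 59526 ± 18132 (SD, n = 3) to 6142 ± 1375 (SD, n = 3) (log2 fold change -3.28, adjusted p = 4.59e-06), and Cx3cr1 was at 0 in each EV-treated library, which allows up to 3 counts per library. Ly6c2 was the marker that rose (log2 fold change 1.34, adjusted p = 8.53e-07). Mrc1, Ccr2 and Fcgr1, named after their values were seen, were not called. Mrc1 (log2 fold change 0.34, adjusted p = 0.332) and Ccr2 (log2 fold change 0.63, adjusted p = 0.211) leaned higher. Fcgr1 leaned lower (log2 fold change -0.63, adjusted p = 0.213). Sham replicate 1 had the lowest Cebpa and the lowest marker sum of the sham-treated samples. Without Ly6c2, left out after its values were seen, the sum was 76090.1, 134111 and 127525 in sham replicates 1 to 3 and 14274, 20615 and 20946 in EV replicates 1 to 3, 6.05-fold lower with EVs. The part of macrophages in the fall of Cebpa was not tested.

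The genes whose pattern over the 6 samples was most like that of Cebpa were Siglec1, Rora and Lpcat1, with Pearson r of log2-scaled counts of at least 0.9997 among 10453 other genes with a mean normalized count over 100. Siglec1 encodes a macrophage sialoadhesin and fell from 441 ± 113 (SD, n = 3) to 64.6 ± 4.04 (SD, n = 3). Those most like Gata1 were Cdc42se1, Tgfb1 and Cdc34, with r of at least 0.9986, and Tgfb1 had 8196, 8129 and 8209 normalized counts in sham replicates 1 to 3 and 12326, 13309 and 13386 in EV replicates 1 to 3. With 6 samples in 2 distinct groups, such values describe the shared difference between groups and the small spread within them.

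Of the other factors of granulocyte and macrophage fate, 13 of 30 were higher and 7 were lower, against 12.1% and 11.6% of all genes tested, and their median log2 fold change was 0.18. Irf8, which drives monocyte and dendritic cell fates, had 672, 1266 and 911 normalized counts in sham replicates 1 to 3 and 52.9, 135 and 129.7 in EV replicates 1 to 3 (log2 fold change -3.15, adjusted p = 5.01e-05). It was lower in every EV-treated than in every sham-treated sample, and within each group it was lowest in replicate 1, where the macrophage marker sum was also lowest. Bhlhe41, which serves tissue macrophages, fell as well (log2 fold change -2.65, adjusted p = 1.1e-05), while its relative Bhlhe40 rose (log2 fold change 2.24, adjusted p = 2.74e-08). Egr3, an immediate early factor, and Klf2, a factor of quiescent leukocytes, also rose (log2 fold change 2.47, adjusted p = 8.5e-07, and log2 fold change 2.14, adjusted p = 3.72e-06).

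**Figure D5:**
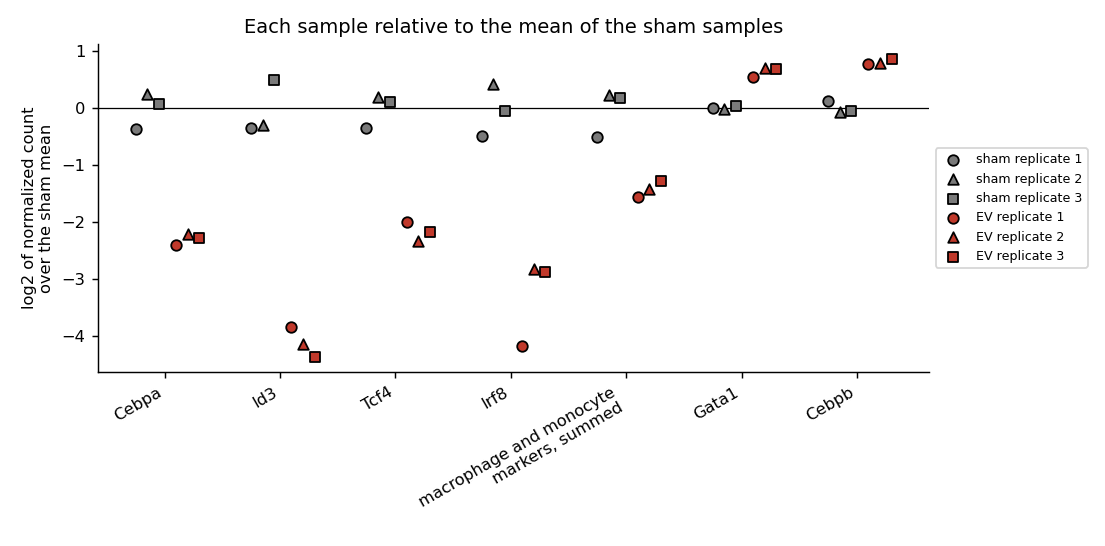
Log2 of the normalized count over the mean of the sham-treated samples (y axis) in each of 6 samples, for 6 genes and for the sum of 15 macrophage and monocyte markers. Symbols show the replicate and colours the group. Cebpa, Id3, Tcf4, Irf8 and the marker sum are lower in all EV-treated samples, Gata1 and Cebpb are higher, and sham replicate 1 is the lowest sham sample for each of these 4 falling genes and for the sum.

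Genes that GATA1, C/EBP factors or PU.1 are known to serve in eosinophils, with other genes of the eosinophil surface, were for the most part higher. Of 20 such genes, 19 were in the table and 18 were tested. In EV-treated eosinophils 14 of the 18 were higher and 1, the nucleoside transporter gene Slc29a1 (log2 fold change -0.73, adjusted p = 0.000163, named after its value was seen), was lower. Of all genes tested, 12.1% were higher and 11.6% lower. The median log2 fold change of the 18 was 0.66, beside -0.014 over all genes tested. The 6 with the largest changes were Il1rl1, the IL-33 receptor (2.12), Csf2rb, the common β chain (1.41), Cd24a (1.40), Ccr3, the eotaxin receptor (1.13), Ear1, an eosinophil ribonuclease (0.90) and Siglecf (0.85), each with an adjusted p of at most 2.67e-05. Prg2 and Il5ra, both served by GATA1, were not called (log2 fold change 0.23, adjusted p = 0.0478, and log2 fold change -0.14, adjusted p = 0.155). Prg3, named after its value was seen, was not called either (log2 fold change 0.042, adjusted p = 0.685). In the viability assays of the paper, more eosinophils survived 24 h with EVs of activated TH2 cells than without treatment. The part of survival, or of other cells in the cultures, in these changes was not tested.

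Markers of other cells were also read. Of all genes tested, 12.1% were higher and 11.6% lower. Of 14 neutrophil markers tested, 2 were higher and 7 were lower, and the sum was 27978, 24154 and 27726 in sham replicates 1 to 3 and 22851, 21036 and 24966 in EV replicates 1 to 3 normalized counts, with overlapping groups. Ngp, a secondary granule gene that C/EBPε serves in neutrophils, was not called (log2 fold change 0.021, adjusted p = 0.92) and changed sign under 4 alternatives, while Mmp8 fell (log2 fold change -1.68, adjusted p = 5.27e-06) and Ly6g rose (log2 fold change 2.65, adjusted p = 4.16e-08). Of 11 T cell markers, 4 could be tested and 1, Cd28, was lower (log2 fold change -3.70, adjusted p = 3.69e-05). Lat was not called (log2 fold change -0.14, adjusted p = 0.672), Cd3e had no row, and Cd3d and Cd3g were at most 71.1 and 6.00 normalized counts in a sample. The sum of the 10 T cell markers in the table was 522, 1045 and 928 in sham replicates 1 to 3 and 248, 285 and 273 in EV replicates 1 to 3 normalized counts, lower in every EV-treated sample. Without Cd28, left out after its values were seen, it was 229.8 to 338 in sham- and 220.2 to 237 in EV-treated samples, and the groups overlapped. Of 12 progenitor and cycling markers, 11 were tested, with 2 called higher and 3 lower, and the sum was 27685, 28848 and 28615 in sham replicates 1 to 3 and 31304, 27437 and 28018 in EV replicates 1 to 3 normalized counts, with overlapping groups. Mki67 was not called (log2 fold change 0.19, adjusted p = 0.0709), and Sox4 fell (log2 fold change -4.02, adjusted p = 1.97e-05). Top2a was just called (log2 fold change 0.30, adjusted p = 0.00984) and lost the call when any 1 sample was left out (adjusted p of 0.0143 to 0.039). Their part in the changes of the lineage factors was not tested.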

How the data were processed

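Poly(A)-selected RNA was sequenced from 3 sham- and 3 EV-treated eosinophil cultures. The authors checked reads with FastQC, trimmed adapters with Cutadapt and quantified genes with Salmon, on mm10 by the submitters' processing notes. Versions, annotation and strandedness are not given in the sources used here. Estimated counts, which need not be whole, were deposited by the authors for 16254 genes, beside normalized counts, a deposited signal in which counts are divided by a DESeq2 size factor per sample and raised by 1. A deposited table of the authors' own comparison (means, fold changes, p-values) was not used. Groups and sample numbers came from the sample titles, and columns were matched to them by name.

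Estimated counts were rounded and fitted with edgeR 4.0.16 in R 4.3.3 (TMM, filterByExpr, glmQLFit, glmQLFTest), which kept 13498 genes. The standard error of a log2 difference was taken as its size over the square root of the F statistic. The alternatives tried were DESeq2 1.42.0, limma 3.58.1 on the log2 of the authors' normalized counts, 3 other scalings, a fit with every gene kept, a replicate block, 2 other thresholds and 6 fits that each lacked a sample. Ratios within samples were tested by exact permutation.

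The members and lists were chosen with earlier results of these data known. Genes named are the members, their families, the 6 most changed genes of each further list with a mean normalized count over 100, the 2 highest and 1 most changed gene of each marker list and the 3 genes most like Gata1 and Cebpa. A gene that this rule names is not reported here. Those named outside this rule, apart from absent or barely detected markers, are marked as such or stand beside a result that turns on them. Lengths and overlaps are from GENCODE vM21 (GRCm38). No 2 samples of a group differed by as little as sampling noise, since the chi-square per gene was 8.37 to 31.8, where noise gives about 1.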

Additional observations from a re-analysis of the deposited data

How the results depend on the processing

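The calls of the 7 lineage factors that passed, and their directions, stood under each scaling, test and filter tried, with the replicate block and in the 6 fits that left out a sample, at an adjusted p under 0.01. Leaving out samples gave 5 to 6 lineage factors higher, the sixth being Cebpe without sham replicate 1, and 2 lower, and the block also gave 6 higher and 2 lower. A minimum of 1 on the size of the log2 fold change left 0 higher and 1 lower lineage factors, where 0.01 and 0.05 as thresholds on the adjusted p alone gave 5 and 6 higher. That setting also left 419 of 1632 genes higher and 857 of 1572 lower, 1 family and partner factor, 8 other fate factors and 4 known targets higher, and 0 known targets lower. At an adjusted p under 0.05, 2478 genes were lower, and 4 family and partner factors were higher and 5 lower. In the main fit, 5 of the 21 family and partner factors tested were called, 2 higher and 3 lower. The shares of all genes tested in that fit were 12.1% higher and 11.6% lower, or 23.7% in either direction.

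With library totals alone the median log2 fold change of all genes moved from -0.014 to -0.16. Then 1036 genes were higher and 2342 lower, so that 30.7% of the calls were higher in place of 50.9%, 1 family and partner factor was higher and 5 were lower, and 2 known targets were lower. Under this scaling Gata1 kept a log2 fold change of 0.49, Cebpb of 0.65 and Cebpa of -2.44, and Tcf3 (-0.020), Cop1 (-0.048) and Ngp (-0.13) turned sign. Ngp also turned with upper-quartile scaling (-0.026) and without sham replicate 2 (-0.080) or EV replicate 3 (-0.12). The cause was not tested. Leaving out each sample gave 1071 to 1833 genes higher, the fewest without EV replicate 3, and 1018 to 1698 lower, with 1044 without EV replicate 2 and 1018 without EV replicate 3, where fewer samples are tested. It gave 1 to 2 family and partner factors higher and 2 to 4 lower, and a log2 ratio of Gata1 to Zfpm1 of -0.063 to 0.14.

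Samples that share a number deviated from their groups' means with correlations of 0.037 to 0.117 across genes, and samples of different numbers with correlations of -0.116 to 0.049. Every sample but EV replicate 3 correlated best with its own number, and EV replicate 3 did so with sham replicate 2 (0.049). The labels do not say whether equal numbers share cells, and the main fit did not take them as pairs. Whether they share cells was not tested. With the replicate block 1794 genes were higher and 1781 lower, and Cebpe (adjusted p = 0.00608) and Tcf12 (adjusted p = 0.00344) passed.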
